A study of Mus musculus with 7 samples.

Results

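The 9 genes described here, Pvalb, Calb1, Calb2, Necab1, Necab2, Necab3, Hpca, Hpcal1 and Ncald, encode calcium-binding proteins of neurons, and were taken as the rows with these symbols among the 32285 genes of the feature table. No other row carries any of the 9 symbols. They were followed in single nuclei of the posterolateral cortical amygdala, an olfactory area, whose anterior domain is called aplCoA and whose posterior domain pplCoA. Tissue of male C57BL6J mice, 8 weeks old and with no treatment named in the labels, was dissected by domain and pooled before nuclei were isolated, so a replicate is a pool of animals and not an animal. The paper states that these mice were housed singly and kept in sensory deprivation over the day before they were killed. The 7 libraries, 4 from aplCoA and 3 from pplCoA, were counted as 3 replicates of each domain, with the UMIs of both libraries of aplCoA replicate 1 added together.

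Calcium ions that enter an active neuron are bound within the cytoplasm by proteins with a helix-loop-helix motif called the EF hand. Parvalbumin (Pvalb), calbindin-D28k (Calb1) and calretinin (Calb2) act mainly as buffers that limit the size and duration of a calcium signal, and in cortex they are the classical labels of separate sets of GABAergic interneurons. Hippocalcin (Hpca), hippocalcin-like 1 (Hpcal1) and neurocalcin delta (Ncald) belong to the neuronal calcium sensors, which expose a fatty acid and move to membranes when they bind calcium. The neuronal calcium-binding proteins 1, 2 and 3 (Necab1, Necab2, Necab3) carry an EF hand and an oxygenase-like domain, and less is known of what they do.

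The genes differ widely in how much intronic sequence they offer to a library in which intronic reads were counted. In the mm10 build (GRCm38, gene models of GENCODE), Ncald covers 426396 bp (chr15:37366175-37792570, minus strand) with 2.01% of it in exons, and Necab1 covers 197550 bp (chr4:14952245-15149794, minus strand) with 2.65%. Hpcal1 lies at chr12:17690856-17791933 (plus strand) with 1.68% in exons. Shorter models are those of Calb1 (chr4:15881264-15908064, plus), Calb2 (chr8:110137502-110168210, minus), Necab2 (chr8:119446719-119472640, plus), Pvalb (chr15:78191114-78206400, minus) and Necab3 (chr2:154544399-154558890, minus). The shortest is Hpca at chr4:129111570-129122036 (minus strand), 10467 bp long with 27.9% in exons. For this reason levels are compared below between samples and cell types for 1 gene at a time, and never between genes.

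Hpca, Hpcal1 and Ncald have coding sequences of 579 bases each that are close copies of one another, which matters for how reads are assigned. Hpca and Hpcal1 shared 86.01% of bases in a coding alignment, Hpca and Ncald 79.35%, and Hpcal1 and Ncald 80.38%. The longest identical stretch was 38, 46 and 18 bases in these pairs, shorter than the 91-base read, so that no read within the coding sequence could be identical between any pair. Calb1 and Calb2 shared 63.6%, and the 3 Necab genes 54.2% to 57.9%. Bases 250 to 340 of the 3 sensor coding sequences are shown because they are the 91-base window, 1 read long, in which the 3 differ in the fewest positions, 16. Capitals mark bases that differ from Hpca, 11 in Hpcal1 and 12 in Ncald.
Hpca: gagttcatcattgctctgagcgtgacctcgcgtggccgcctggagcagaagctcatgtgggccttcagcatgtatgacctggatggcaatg
Hpcal1: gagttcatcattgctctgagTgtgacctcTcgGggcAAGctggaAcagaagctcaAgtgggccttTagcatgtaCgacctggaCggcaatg
Ncald: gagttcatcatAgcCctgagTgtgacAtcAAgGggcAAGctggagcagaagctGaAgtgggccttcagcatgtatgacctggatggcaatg

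A level is given in CPM, the UMIs (unique molecular identifiers, 1 per captured molecule) of the gene scaled to a total of 1000000 UMIs over all genes, in the summed nuclei of a class and replicate. Of 52201 barcodes with at least 1000 genes, 46412 remained after filtering, comprising 19752 glutamatergic nuclei (11671 from aplCoA, 8081 from pplCoA) and 5115 GABAergic nuclei (2885 and 2230). Their medians were 12296.5 and 7918 UMIs per nucleus. Defining markers matched the names: Slc17a7, the vesicular glutamate transporter 1, stood at 211 CPM in glutamatergic and 10.2 in GABAergic nuclei, and Gad2, which makes GABA, at 4.46 and 353. Libraries held 50812605 to 129624583 UMIs, and 265 barcodes occurred in more than 1 library. pplCoA replicate 1 stood apart from pplCoA replicates 2 and 3 in its makeup. A glutamatergic subtype led by Smoc1 made up 4.25% of its glutamatergic nuclei against 25.3% and 24.2%, and a subtype led by Meis1 and Rxfp1 2.37% against 0.0848% and 0.0901%. Tested differences of the 9 genes between domains in glutamatergic nuclei are therefore also given without it.

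All 9 genes were detected, but Pvalb was scarce: 427 UMIs were found in all nuclei, 78.0% of them in the neuron classes, which held 79.3% of the UMIs of all genes. Totals for the others ran from 2564 UMIs for Hpca and 2582 for Calb2, through 9466 to 25709 for Necab2, Necab3, Hpcal1, Calb1 and Necab1, to 146706 for Ncald. Neurons held 94.3% of Calb1, 93.9% of Necab1 and of Necab3, and 93.5% of Necab2 UMIs, and 79.1% of those of Hpcal1, close to the share of all genes.

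Between the neuron classes the 3 buffers and Necab1 were higher in GABAergic nuclei in 6 of 6 replicates, and Necab2, Necab3 and Hpcal1 were higher in glutamatergic nuclei in 6 of 6. For Calb1 the lowest, mean and highest replicate were 129, 146 and 178 CPM in GABAergic nuclei, against 30.2, 42.8 and 64.0 in glutamatergic nuclei. The ranges did not touch, and the mean ratio within replicates was 3.56. Calb2 stood at 23.0 ± 5.95 (SD, n = 6) in GABAergic and 3.45 ± 1.83 (SD, n = 6) in glutamatergic nuclei, a ratio of 7.17. Necab1 stood at 224 ± 20.9 (SD, n = 6) and 53.4 ± 8.77 (SD, n = 6), a ratio of 4.23.

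Pvalb had the largest ratio, 20.1, on the fewest molecules, 244 UMIs in GABAergic and 89 in glutamatergic nuclei. Its level in glutamatergic nuclei, 0.335 CPM, lay below the 1.21 of microglia, a class not known to make parvalbumin, so the glutamatergic value is read as background. Hpca differed least of the genes higher in GABAergic nuclei, with a ratio of 1.31 (8.20 ± 1.56 against 6.37 ± 1.83, SD, n = 6). It was seen in fewer GABAergic nuclei, 6.82% against 8.32%, at lower median depth, 7918 against 12296.5 UMIs. The part of depth and free RNA in this ratio was not tested.

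In the opposite direction Hpcal1 showed the widest gap, at 9.40 ± 1.54 (SD, n = 6) CPM in GABAergic and 36.9 ± 6.84 (SD, n = 6) in glutamatergic nuclei, a ratio of 0.255. Necab3 stood at 17.2 ± 2.57 and 37.5 ± 4.98 (SD, n = 6), a ratio of 0.458. Necab2 stood at 18.6 ± 2.81 and 30.2 ± 5.47 (SD, n = 6), a ratio of 0.617. Thus Necab1 and its 2 relatives lay on opposite sides of the division between inhibitory and excitatory neurons. Ncald was close to even, with a ratio of 0.931 and a higher GABAergic level in 1 of 6 replicates.

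**Figure D1:**
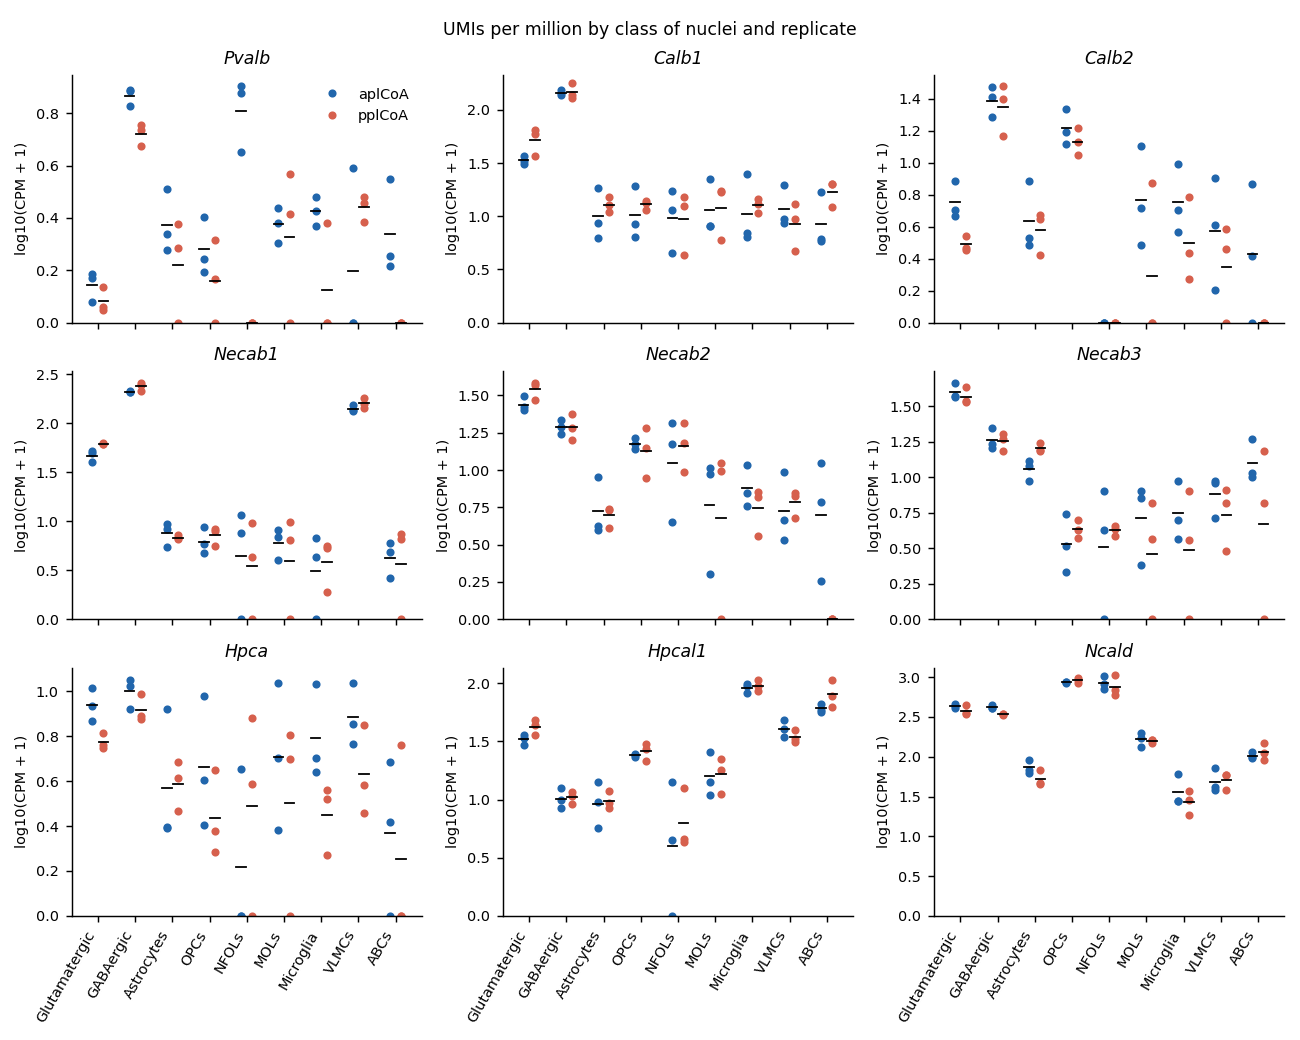
Each panel gives 1 gene, with log10 of CPM plus 1 on the vertical axis and 9 classes of nuclei on the horizontal axis; a point is 1 replicate (blue aplCoA, red pplCoA) and a black line the mean of the 3. Calb1, Calb2 and Necab1 sit higher in GABAergic than in glutamatergic nuclei, Hpcal1 and Necab3 lower, Necab1 is also high in VLMCs and Ncald is highest in OPCs and NFOLs.

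These class differences were tested with neurons assigned by their own transporter and GAD UMIs, none of which belongs to the 9 genes, and with the replicate as a block. Of the 5 genes in at least 10% of the nuclei of a domain in both classes, 5 were called by edgeR's quasi-likelihood test with Benjamini-Hochberg adjustment, where 72.5% of all 10115 genes tested were called. The classes therefore differed in most genes, and a call alone sets no gene apart. Called higher in GABAergic neurons (37.9% of all genes) were Calb1 (log2 fold change 1.63, SE 0.13, adjusted p = 5.97e-06) and Necab1 (1.93, SE 0.07, adjusted p = 5.71e-08). Called higher in glutamatergic neurons (34.6% of all genes) were Necab3 (-1.30, SE 0.09, adjusted p = 1.91e-06), Necab2 (-0.75, SE 0.13, adjusted p = 0.000632) and Ncald (-0.27, SE 0.06, adjusted p = 0.00187). Calb2 (2.61, SE 0.24) and Hpcal1 (-1.96, SE 0.10) passed this filter only through the class in which they were higher, so their fold changes are given with no call. Pvalb and Hpca did not reach 10% of nuclei in either class and were not tested.

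The other classes of nuclei were measured too, and some of them stood above a neuron class. Ncald stood at 884 ± 54.5 (SD, n = 6) CPM in oligodendrocyte precursor cells (OPCs) and 818 ± 194 in newly formed oligodendrocytes (NFOLs), against 407 ± 49.4 in glutamatergic nuclei, and at 161 ± 22.8 in mature oligodendrocytes (MOLs). Every replicate of OPCs and of NFOLs exceeded every glutamatergic one, the order between OPCs and NFOLs lay within the spread of replicates, and the level was lowest of that lineage in the mature cells. Microglia had 32.5 ± 14.5 (SD, n = 6).

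Hpcal1 was higher in the immune classes than in neurons. Microglia had 92.4 ± 8.67 (SD, n = 6) CPM and border macrophages 211 ± 64.0 (SD, n = 4), against 36.9 in glutamatergic nuclei. The macrophage values were mostly of aplCoA, as replicates with few such nuclei were left out. Arachnoid barrier cells (ABCs) had 70.8 ± 19.0 (SD, n = 6). Necab1 was high in vascular leptomeningeal cells (VLMCs), at 150 ± 17.7 (SD, n = 6), between the 2 neuron classes and far above the 6.26 ± 1.43 (SD, n = 6) of astrocytes. Calb2 reached 14.2 ± 3.67 (SD, n = 6) in OPCs, above the glutamatergic level.

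Free RNA was measured for each gene. In barcodes with fewer than 100 UMIs, taken to hold no nucleus, the pooled level of Hpca was 46.9 CPM, of Calb2 45.3, of Calb1 155, of Hpcal1 70.0, of Necab2 64.3, of Necab3 48.0, of Necab1 58.0, of Ncald 425 and of Pvalb 8.32. Pooled over replicates, each lay above the glutamatergic level of the same gene, and those of all but Necab1 above the GABAergic level. How many of all genes do the same was not counted. Within replicates the order did not hold for every gene. In these barcodes Ncald stood at 336, 487 and 451 CPM in aplCoA and 364, 431 and 450 in pplCoA. Its glutamatergic levels were 407, 434 and 464 in aplCoA and 440, 357 and 340 in pplCoA. Calb1 stood at 86.1, 133 and 102 in aplCoA and 72.4, 204 and 278 in pplCoA. Its GABAergic levels were 143, 153 and 137, and 138, 129 and 178. Thinned to 2000 UMIs per nucleus, 1.39 ± 0.42% (SD, n = 6) of glutamatergic and 1.78 ± 0.43% of GABAergic nuclei had an Hpca UMI, against 0.772 ± 0.671% of microglia. The glutamatergic share of Calb2, 0.829 ± 0.468%, exceeded the microglial 0.779 ± 0.655% by less than the spread between replicates. At this depth the class as a whole was not told apart from microglia, though some of its subtypes stood higher, as given below. The part of free RNA in the share of each class was not tested. Unthinned shares were 8.32% for Hpca and 4.30% for Calb2 in glutamatergic nuclei at a median of 12296.5 UMIs, and 1.68% and 1.71% in microglia at 3182.

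At equal depth the neuronal shares of Calb1, Necab1 and Ncald stood clear of microglia. Calb1 was seen in 16.7 ± 1.74% of GABAergic, 7.75 ± 2.78% of glutamatergic and 2.69 ± 1.24% of microglial nuclei (SD, n = 6 each). Necab1 was seen in 29.9 ± 2.77%, 9.11 ± 1.48% and 0.721 ± 0.562%. Ncald was seen in 46.6 ± 4.26%, 51.7 ± 4.46% and 6.42 ± 2.58%. Hpcal1 ran the other way, with 1.94 ± 0.475%, 6.80 ± 1.27% and 14.7 ± 1.64%.

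Within each class nuclei were divided again into subtypes, without the 9 genes and without the genes that differed between domains, and each subtype is called by its leading genes. There were 22 glutamatergic and 19 GABAergic subtypes, of which 21 and 17 had at least 50 nuclei. Levels over subtypes are descriptions, with no test.

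Pvalb UMIs were concentrated in 2 GABAergic subtypes. A subtype of 558 nuclei led by Il1rapl2, Ltbp1 and Ndst4 held 58.6% of the Pvalb UMIs of GABAergic nuclei at 24.1 CPM, and a subtype of 284 nuclei led by Hs3st4, Mctp2 and Unc5b held 24.6% at 23.8. The same subtypes parted on the other buffer. Calb1 stood at 454 CPM in the first, in 91.4% of its nuclei, and at 21.5 in the second, in 13.4%. Necab1 divided them too, at 112 and 9.93, as did Hpca, at 1.85 and 21.9.

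Calb1 was high in 4 GABAergic subtypes. Besides the Il1rapl2 subtype these were one led by Slit2 and Nxph2 (307 nuclei, 423 CPM), an Sst-like one led by Man1a and L3mbtl4 (499 nuclei, 276) and one led by Syt6 and Cadps2 (106 nuclei, 306). The Il1rapl2 and Sst-like subtypes together held most Calb1 UMIs of the class, 41.6% and 23.6%. In the Vip-like and Lamp5-like subtypes with at least 50 nuclei Calb1 lay between 9.76 and 15.8 CPM.

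Calb2 followed another set. The Vip-like subtype led by Vip and Plpp4 (415 nuclei) had 160 CPM and 44.3% of the Calb2 UMIs of GABAergic nuclei, and the Vip-like subtype led by Stk32a (430 nuclei) had 91.6 and 20.9%. The first of these also held 24.9% of the Hpcal1 UMIs of GABAergic nuclei, at 37.9 CPM, above the class level of 9.68. Further subtypes with Calb2 were led by Rmst (81.3) and by Thsd7b (53.3).

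Among glutamatergic nuclei Calb2 was near background in several large subtypes and higher in others. The subtype led by Ndnf and Trp73, a gene of Cajal-Retzius cells, had 140 CPM, from 86 UMIs in 133 nuclei, and its replicates averaged 152 ± 56.2 in the 3 aplCoA replicates and 22.5 ± 31.9 in 2 of pplCoA (SD). Its median depth was 3824 UMIs, the lowest of the glutamatergic subtypes. Subtypes led by Grik3 and Etv1 and by Adarb2 and Vwa5b1 had 29.3 and 19.4, and the second held 24.0% of glutamatergic Calb2 UMIs in 6.77% of the nuclei. Subtypes led by Meis1 and Rxfp1, by Ebf1, by Ebf2, by Gpc5 and by Nxph1 and Rorb were raised too. They held 8.70%, 7.17%, 4.02%, 3.54% and 5.16% of the Calb2 UMIs, on 5.08%, 2.98%, 2.30%, 2.20% and 1.38% of the UMIs of the class. Of the nuclei in each, 74.1% to 94.9% were of aplCoA, against 25.9% in the Grik3 subtype. The subtypes led by Igfbp5, Ccbe1, Smoc1, Pcsk5, Pde11a, Chrm2 and Il1rapl2, each of over 1000 nuclei, had 0.752 to 1.56 CPM, below the microglial 4.84.

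Necab1 varied among the subtypes of both classes. In GABAergic nuclei it stood at 953 CPM in the Syt6 subtype, in 100% of 106 nuclei, and at 717 in a subtype led by Itga8, Gulp1 and Cck (166 nuclei), against 9.93 in the Hs3st4 subtype and 17.2 in one led by Hapln1 and Vcan. In glutamatergic nuclei the largest part, 24.5% of Necab1 UMIs, lay in subtype Glut 3 of the heatmap (1679 nuclei), at 145 CPM. Among those with at least 50 nuclei the highest level, 172 CPM, was that of a subtype of 98 nuclei led by Sox2ot and Sox6, whose 199 CPM of Gad2 goes against its class, and the lowest, 6.28, that of 133 nuclei led by Tshz2 and Qrfpr, from 8 UMIs. Necab2 was highest in the Syt6 and Hapln1 subtypes, at 92.0 and 77.2, and Necab3 in the glutamatergic subtype led by Igfbp5, at 66.8 with 22.3% of the class's UMIs. In the Slit2 subtype Necab3 was at 2.41, from 7 UMIs.

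Ncald was in most nuclei of most subtypes, and still varied widely in level across them. GABAergic subtypes led by C87487 and Dkk2 and by Crispld1 and Sv2c, both Lamp5-like, had 1051 and 741 CPM, and the Syt6 subtype 66.7. Glutamatergic subtypes led by Pcsk5 and by Galntl6 had 641 and 637, and the Ndnf subtype 86.5. Calb1 and Ncald thus tended to be high in different GABAergic subtypes, and among thinned GABAergic nuclei 33.4% of 861 with a Calb1 UMI had an Ncald UMI, against 49.0% of 4228 without.

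**Figure D2:**
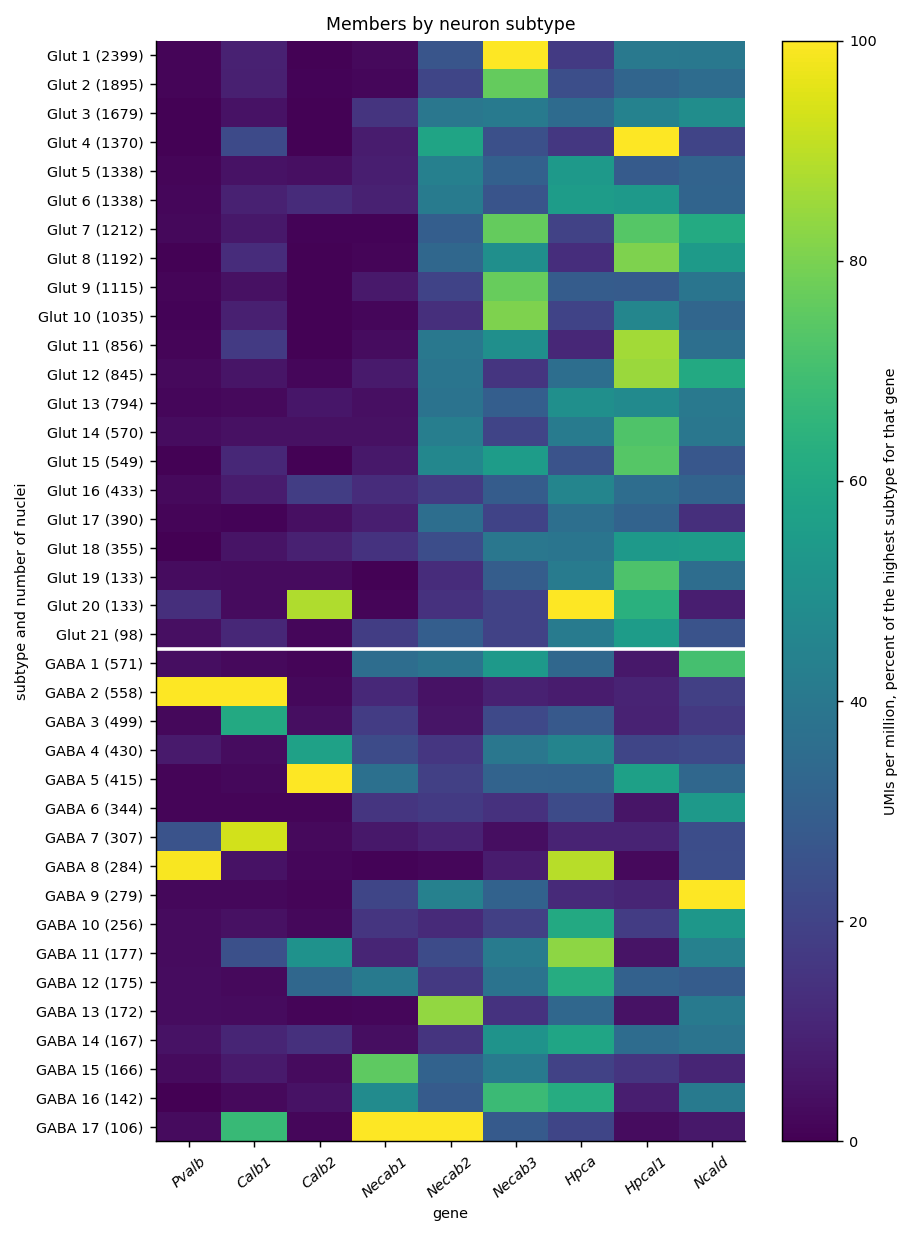
Rows are the 38 neuron subtypes with at least 50 nuclei, labelled by class and number with the number of nuclei in parentheses, columns are the 9 genes, and colour is the level as a percent of the highest subtype for that gene. Pvalb is bright in GABA 2 (led by Il1rapl2) and 8 (Hs3st4), Calb1 in GABA 2, 3 (Man1a), 7 (Slit2) and 17 (Syt6), Calb2 in GABA 5 (Vip) and Glut 20 (Ndnf), and Ncald in GABA 9 (C87487); the white line parts glutamatergic from GABAergic subtypes.

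Over the 38 subtypes with at least 50 nuclei and 9806 genes, the genes most alike to each of the 9 were found by Pearson's r of log2(CPM + 1), a description over points that share libraries. For 3 of the 9 the most alike gene lay on the opposite strand and overlapped the member. Necab1 was most like Gm11844 (r = 0.98), an antisense gene that overlaps it by 9406 bp, Necab3 was most like 1700003F12Rik (0.91, opposite strand, 2919 bp of overlap), and Ncald was most like Gm15942 (0.89, antisense, 20150 bp of overlap) and Grhl2 (0.86, opposite strand, 2606 bp away). The study ran Cell Ranger with a setting for its 3' chemistry, under which reads are counted by strand.

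For the others the nearest genes lay elsewhere. Hpcal1 was most like Cdkl4 (0.88), Gm26652 (0.86) and Baiap2 (0.85), Pvalb like Mypn (0.86), Pla2g3 (0.81) and Blm (0.79), and Calb2 like Thy1 (0.81), Tmem59l (0.79) and Ttc33 (0.78). Hpca was most like Mdm2 (0.74), Gm48956 (0.74) and Basp1 (0.72), Necab2 like Camkv (0.68), Arhgef28 (0.67) and Ccdc112 (0.67), and Calb1 like Rab38 (0.65), Crhbp (0.65) and Abca5 (0.65). The remaining places were held by Cers5 (0.75) and Hmgn2 (0.74) for Necab1, Gm13269 (0.74) and Lrp12 (0.70) for Necab3, and Plppr4 (0.76) for Ncald. Among the 9 themselves the highest r was between Calb2 and Hpca (0.59), 2 genes near background in many subtypes, and the lowest between Pvalb and Necab2 (-0.67).

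The study's own comparison is between aplCoA and pplCoA. In glutamatergic nuclei 4 of the 6 genes tested were lower in aplCoA, namely Calb1, Necab1, Necab2 and Hpcal1, and Necab3 and Ncald did not pass the test. Across all 9715 genes tested, 21.2% were called, 10.9% in this direction. Replicates of the domains did not overlap for 43.4% of all genes tested, and among the 6 for Necab1.

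Calb1 stood at 36.2, 32.3 and 30.2 CPM in aplCoA replicates 1 to 3 and at 35.8, 58.6 and 64.0 in pplCoA. pplCoA replicate 1 lay within the aplCoA range and the other pplCoA replicates well above it. The log2 fold change of aplCoA over pplCoA was -0.76 (SE 0.20, edgeR adjusted p = 0.0289), and -0.99 without pplCoA replicate 1 (edgeR adjusted p = 0.000156). The level of Calb1 in barcodes under 100 UMIs followed the same order of pplCoA replicates, at 72.4, 204 and 278, against 86.1 to 133 in aplCoA; its part in the result was not tested.

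Necab1 was the steadiest of the 4, at 48.4, 39.5 and 50.6 CPM in aplCoA and 62.0, 60.1 and 59.8 in pplCoA. Every pplCoA replicate lay above every aplCoA replicate, the log2 fold change was -0.47 (SE 0.09, edgeR adjusted p = 0.00894), and the call held without any 1 of the 6 replicates (edgeR adjusted p from 0.00863 to 0.0374). Without pplCoA replicate 1 it was -0.47 again (edgeR adjusted p = 0.00882). In barcodes under 100 UMIs Necab1 stood at 59.6, 49.5 and 53.5 CPM in aplCoA and 72.4, 61.2 and 57.0 in pplCoA. These values overlapped but had the same order of pplCoA replicates as the nuclei. Their part in the result was not tested. Of the antisense or opposite-strand partners, Gm11844 was called lower in aplCoA (-0.80, edgeR adjusted p = 0.0212), on 2241 UMIs in 19752 glutamatergic nuclei. It may have passed the filter on the share of nuclei through pplCoA alone, where it was higher. Its call is therefore not read as a result beside that of Necab1. Gm15942, the partner of Ncald, was also called lower (-0.51, edgeR adjusted p = 0.0426), unlike Ncald itself. On 3091 UMIs the same limit may apply to Gm15942. 1700003F12Rik, which overlaps Necab3, did not pass the test (-0.23, edgeR adjusted p = 0.204).

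Necab2, which binds metabotropic glutamate and adenosine receptors, stood at 30.1, 24.1 and 25.4 in aplCoA and 28.3, 37.3 and 36.2 in pplCoA (log2 fold change -0.43, SE 0.13, edgeR adjusted p = 0.0427). Hpcal1 stood at 35.1, 28.4 and 33.1 in aplCoA and 35.0, 47.0 and 43.1 in pplCoA (-0.45, SE 0.12, edgeR adjusted p = 0.0333). In both, pplCoA replicate 1 again lay within the aplCoA range. Without it the log2 fold changes were -0.56 for Necab2 (edgeR adjusted p = 0.00339) and -0.57 for Hpcal1 (edgeR adjusted p = 0.00257). In barcodes under 100 UMIs replicate 1 was also the lowest of pplCoA, with 38.3, 68.7 and 84.5 CPM of Necab2 against 52.9 to 72.2 in aplCoA, and 39.6, 86.9 and 97.4 of Hpcal1 against 52.3 to 68.7. The part of this in the results was not tested. The calls of Calb1, Necab2 and Hpcal1 were kept without pplCoA replicate 1 and lost without any 1 of the other 5 replicates, with edgeR adjusted p up to 0.102, 0.149 and 0.119.

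Ncald stood at 407, 434 and 464 CPM in aplCoA and 440, 357 and 340 in pplCoA, which overlapped (log2 fold change 0.12, SE 0.10, edgeR adjusted p = 0.463). Without pplCoA replicate 1, the highest of its domain, the log2 fold change was 0.23, which did not pass the test (edgeR adjusted p = 0.0859). Necab3 stood at 36.1, 45.0 and 35.9 and at 42.2, 33.5 and 32.5 (0.03, SE 0.13, edgeR adjusted p = 0.915, and 0.14 with edgeR adjusted p = 0.449 without pplCoA replicate 1), and its sign turned without aplCoA replicate 2 or without pplCoA replicate 2 or 3.

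Pvalb, Calb2 and Hpca were in under 10% of glutamatergic nuclei of either domain and were not tested in this fit. Calb2 stood at 6.69, 4.08 and 3.66 CPM in aplCoA and 1.84, 1.94 and 2.50 in pplCoA, and Hpca at 9.30, 7.64 and 6.40 and at 5.51, 4.74 and 4.61. Neither overlapped. With no filter on low counts 6.18% of 27725 genes were called higher in aplCoA, both genes among them (Calb2 log2 fold change 1.15, edgeR adjusted p = 0.00135, and Hpca 0.57, edgeR adjusted p = 0.0183). Without pplCoA replicate 1 in that fit, where 8.51% of 27471 genes were called higher, both were called again (Calb2 1.07, edgeR adjusted p = 2.32e-05, and Hpca 0.65, edgeR adjusted p = 0.00133). No other replicate was left out of it. Dropping the filter also changed p-values at a like fold change. For Calb1 the edgeR adjusted p was 0.0020 with no filter and 0.0289 with it, both at -0.76. With the 8 subtypes that had at least 10 nuclei in every replicate at equal weight, the replicates of both overlapped, at 0.72 for Calb2 (exact permutation p = 0.4) and 0.50 for Hpca (exact permutation p = 0.2). Hpca was higher in aplCoA in 8 of these 8 subtypes and Calb2 in 7. The glutamatergic subtype led by Adarb2, with 24.0% of the Calb2 UMIs, made up 12.0%, 6.04% and 8.20% of glutamatergic nuclei in aplCoA and 4.74%, 0.0424% and 0% in pplCoA. Microglia, read as background, had the same order of means in Hpca, with 5.71 ± 3.51 (SD, n = 3) in aplCoA and 1.94 ± 0.947 in pplCoA, and in Calb2, with 5.15 ± 3.18 and 2.58 ± 2.25. In barcodes under 100 UMIs Calb2 stood at 36.6, 37.3 and 41.3 CPM in aplCoA and 21.2, 43.9 and 75.7 in pplCoA. Hpca stood at 59.8, 58.3 and 39.2 in aplCoA and 24.7, 35.7 and 55.9 in pplCoA. Both overlapped, and the part of free RNA in these differences was not tested. How many of all genes do not overlap in microglia was not counted. The shares of microglia with an Hpca UMI at 2000 UMIs did not overlap between domains (1.25 ± 0.638% and 0.294 ± 0.187%). The two-sided exact permutation p was 0.1, and 3 replicates against 3 cannot give less.

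**Figure D3:**
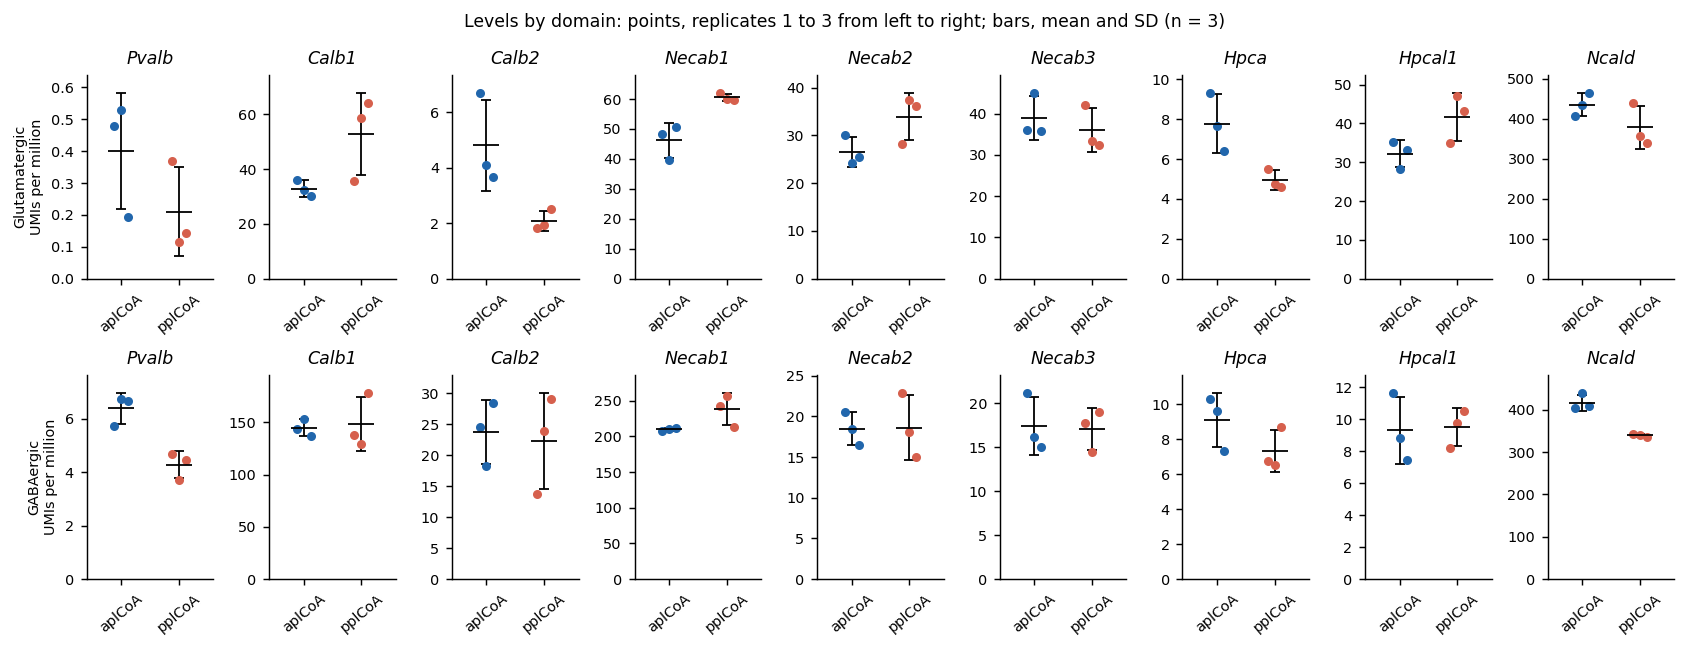
CPM of the 9 genes in glutamatergic (top) and GABAergic (bottom) nuclei by domain, each vertical axis starting at 0; points are replicates 1 to 3 from left to right, bars the mean and SD (n = 3). In glutamatergic nuclei pplCoA replicate 1 lies with aplCoA for Calb1, Necab2 and Hpcal1 but not for Necab1.

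The domains held different glutamatergic subtypes, and the 4 differences were set beside that. The Smoc1 subtype, at 103 CPM the highest glutamatergic subtype in Calb1, and at 66.6 in Hpcal1 and 53.6 in Necab2 the highest in those too, made up 1.23%, 0.127% and 0.114% of glutamatergic nuclei in aplCoA and 4.25%, 25.3% and 24.2% in pplCoA. Its share was lower in pplCoA replicate 1 than in the other pplCoA replicates, as were the levels of the 3 genes. The part of subtype makeup in the 4 differences was not tested.

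Without its nuclei Calb1 stood at 32.5 ± 2.72 (SD, n = 3) in aplCoA and 42.2 ± 8.75 in pplCoA, a log2 difference of -0.38 with overlapping replicates (exact permutation test, two-sided, p = 0.2). Necab2 and Hpcal1 were each left at -0.19 with overlap (exact permutation p = 0.2). Necab1 was left at -0.37, still without overlap (exact permutation p = 0.1), as were 44.3% of all genes tested. These log2 differences are of mean CPM and are not edgeR fold changes. Over all glutamatergic nuclei the means in aplCoA and pplCoA were 32.9 and 52.8 CPM for Calb1. For Necab1 they were 46.2 and 60.6, against 45.8 and 59.1 without the Smoc1 subtype. Glut 3, with the most Necab1 UMIs, made up 4.44%, 3.31% and 6.74% of glutamatergic nuclei in aplCoA and 12.6%, 11.7% and 17.2% in pplCoA, without overlap. Without its nuclei Necab1 stood at 40.7 ± 4.09 (SD, n = 3) in aplCoA and 48.1 ± 2.36 in pplCoA, a log2 difference of -0.24, still without overlap (exact permutation p = 0.1), as were 44.0% of all genes. Both exclusions were chosen after the values were seen. Each left out a subtype that was high in the genes at issue and commoner in pplCoA. Smaller differences had to follow for those genes, so these values and their p test no cause.

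When 8 glutamatergic subtypes with at least 10 nuclei in every replicate (11036 nuclei) were given equal weight, Calb1 differed by -0.04 on the log2 scale (36.4 ± 0.416 in aplCoA, 37.4 ± 5.31 in pplCoA, SD, n = 3) and Hpcal1 by -0.09, both less than the spread between replicates (exact permutation p = 0.7). Necab1 differed by -0.33 (40.9 ± 2.61 and 51.2 ± 7.65, no overlap, exact permutation p = 0.1) and was lower in aplCoA in 7 of the 8 subtypes. Among the other genes Pvalb and Hpca were higher in aplCoA in 8 of 8, and Calb2 and Necab3 in 7 of 8. The subtypes share the same replicates, and no share over all genes was counted. Necab2 differed by -0.26 (exact permutation p = 0.2). Necab3 and Ncald, with no call over all nuclei, did not overlap under equal weight, at 0.21 and 0.09 on the log2 scale (exact permutation p = 0.1). Of all 9715 genes 24.9% did not overlap under that weighting.

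**Figure D4:**
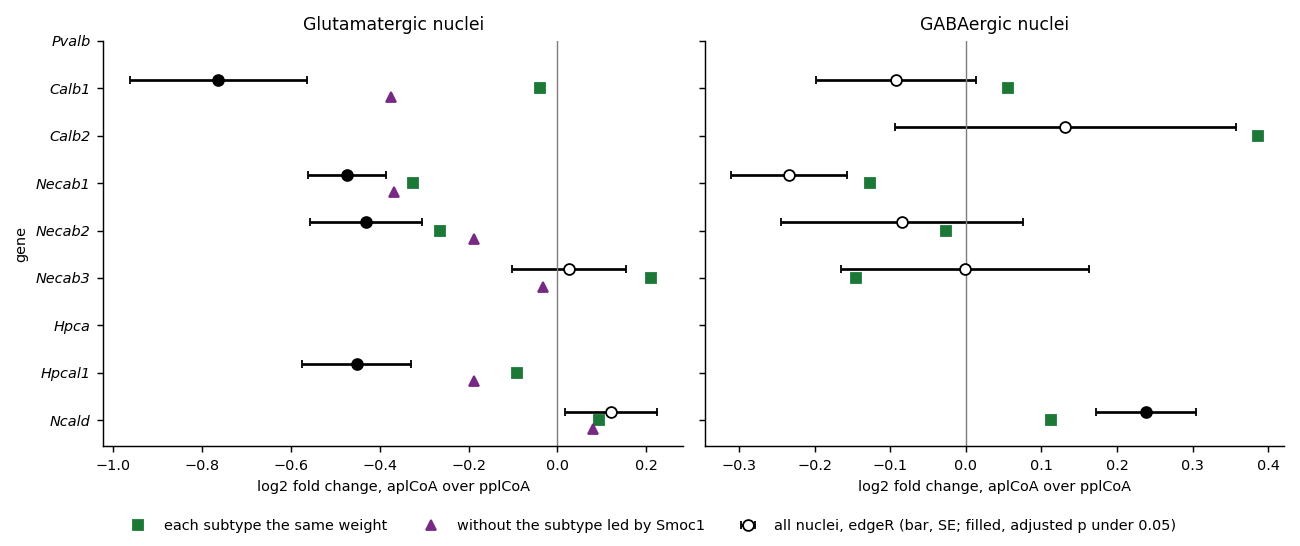
Log2 fold change of aplCoA over pplCoA (horizontal axis) for the genes tested in each class (vertical axis): circles, all nuclei with SE, filled where the adjusted p was under 0.05; squares, each subtype at the same weight; triangles, glutamatergic nuclei without the Smoc1 subtype. Circles are edgeR fold changes, and squares and triangles are log2 ratios of mean CPM, so they are not the same measure. For Calb1 in glutamatergic nuclei the circle is at -0.76, the triangle at -0.38 and the square at -0.04. For Necab1 they are at -0.47, -0.37 and -0.33.

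In GABAergic nuclei 1 of 6 genes tested was called. Ncald stood at 404, 439 and 409 CPM in aplCoA and 343, 341 and 336 in pplCoA, where 10.0% of 8759 genes were called, 4.53% higher and 5.51% lower in aplCoA. Its log2 fold change was 0.24 (SE 0.07, edgeR adjusted p = 0.0362), the replicates did not overlap, and 28.2% of all genes tested did not overlap. The call was lost without any 1 of the 6 replicates (edgeR adjusted p from 0.0559 to 0.155). With subtypes at equal weight the difference was 0.11 and replicates overlapped (exact permutation p = 0.2). At 2000 UMIs 50.3 ± 2.00% (SD, n = 3) of GABAergic nuclei in aplCoA and 42.9 ± 0.727% in pplCoA had an Ncald UMI (exact permutation test, two-sided, p = 0.1).

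Necab1 was again lower in aplCoA, at 208, 210 and 212 against 243, 257 and 213 CPM, but missed the threshold (log2 fold change -0.23, SE 0.08, edgeR adjusted p = 0.0718). Without pplCoA replicate 3, the lowest of its domain, the difference was called (-0.30, edgeR adjusted p = 0.0330). It had the same sign in 10 of 11 GABAergic subtypes, which share the same replicates. Calb2 was higher in aplCoA in 9 of the 11, and no share over all genes was counted. With these subtypes at equal weight the Necab1 difference was -0.13 and the replicates overlapped (exact permutation p = 0.3). Gm11844 was called lower in GABAergic nuclei of aplCoA (-0.53, edgeR adjusted p = 0.0196). Calb1 did not pass the test (-0.09, SE 0.11, edgeR adjusted p = 0.687). Calb2 (0.13, SE 0.23) and Necab2 (-0.08, SE 0.16) did not pass the test, nor did Necab3. Pvalb, not tested in this fit, stood at 5.74, 6.75 and 6.69 in aplCoA and 4.70, 3.71 and 4.46 in pplCoA without overlap, on 163 and 81 UMIs. How many of all genes do not overlap with no filter was not counted. With no filter on low counts Pvalb was not called (0.48, edgeR adjusted p = 0.371), where 2.77% of 24993 genes were called higher.

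Whether a domain difference itself differed between the neuron classes was tested by an interaction term. Of the 5 genes that passed the filter in both classes edgeR's quasi-likelihood test called 0, where 5.17% of 10035 genes were called, with 1 at an unadjusted p under 0.05, and the likelihood ratio test called 1, where it called 9.66% of all genes. The gene called by the likelihood ratio test was Calb1. By the quasi-likelihood test its difference between classes was -0.60 and was not called (SE 0.18, edgeR adjusted p = 0.0919). Without pplCoA replicate 1, where 11.2% of all genes were called, 2 were called, Calb1 at -0.83 (edgeR adjusted p = 0.000522) and Necab2 at -0.64 (edgeR adjusted p = 0.0112). Calb2 and Hpcal1 passed the filter only through the class in which each was higher, so their terms of 1.04 (SE 0.31) and -0.35 (SE 0.17) are given as values only.

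Measures of the nuclei themselves also differed by domain. Median mitochondrial percent per replicate ran from 0.0144 to 0.0204 in glutamatergic nuclei of aplCoA and from 0.00822 to 0.0110 in pplCoA, and in GABAergic nuclei from 0.0206 to 0.0343 and from 0.0149 to 0.0174. Ribosomal protein genes followed, at 0.254% to 0.300% against 0.194% to 0.219% in glutamatergic nuclei. Median UMIs overlapped. The part of these measures in the domain differences was not tested.

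Other genes of calcium handling were taken from 4 lists. Among other neuronal calcium sensors, relatives of the hippocalcin group, 7 were tested in glutamatergic nuclei. By edgeR's quasi-likelihood test 2 of 7 were higher in aplCoA (against 10.3% of all genes) and 0 lower. The likelihood ratio test and DESeq2 each called 3 of 7 there. In GABAergic nuclei edgeR's quasi-likelihood test called 0 of 7, where 10.0% of all genes were called, with 1 at an unadjusted p under 0.05, Vsnl1 (-0.20), and the likelihood ratio test and DESeq2 called 0. Kcnip1, which tunes A-type potassium channels, had 42.6, 17.7 and 21.4 CPM in glutamatergic nuclei of aplCoA and 10.8, 3.33 and 3.93 in pplCoA (log2 fold change 2.06, SE 0.46, edgeR adjusted p = 0.0162). It may have passed the 10% filter through aplCoA alone, where it was higher. Its call, also in the count above, is therefore not read as a result. Replicate 1 was the highest of each domain. The log2 fold change was 2.83 when pplCoA replicate 1 was left out and 1.59 when aplCoA replicate 1 was, and leaving out the latter, or pplCoA replicate 2 or 3, ended the call (edgeR adjusted p up to 0.0643). Vsnl1, visinin-like 1, had 281, 265 and 269 against 221, 181 and 190 (0.38, SE 0.08, edgeR adjusted p = 0.0123). The median log2 fold change of the list was -0.12 in glutamatergic nuclei, beside 0.0049 over all genes.

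Among other EF-hand genes, Calm2 and Calm3, which encode calmodulin, were higher in aplCoA in both classes. Calm2 had a log2 fold change of 0.41 (SE 0.09, edgeR adjusted p = 0.0162) in glutamatergic and 0.44 (SE 0.08, edgeR adjusted p = 0.00547) in GABAergic nuclei. Calm3 had 38.4, 40.6 and 34.1 against 24.8, 22.1 and 24.6 CPM in glutamatergic nuclei (log2 fold change 0.58, SE 0.09, edgeR adjusted p = 0.00609), and in GABAergic nuclei its log2 fold change was 0.48 (SE 0.11, edgeR adjusted p = 0.0168). Caln1, calneuron 1, was lower in aplCoA in glutamatergic nuclei (-0.47, SE 0.11, edgeR adjusted p = 0.0191).

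Of small calmodulin-binding proteins and calmodulin-regulated enzymes edgeR's quasi-likelihood test called 4 of 14 higher and 0 lower in aplCoA in either class. Of all genes 10.3% were called higher in glutamatergic and 4.53% in GABAergic nuclei. The likelihood ratio test and DESeq2 each called 7 of 14 in glutamatergic nuclei, and 5 and 2 in GABAergic nuclei, with direction not counted. Nrgn, neurogranin, which holds calmodulin at low calcium, had 218, 194 and 178 against 119, 103 and 125 CPM in glutamatergic nuclei (0.68, SE 0.10, edgeR adjusted p = 0.00533). In GABAergic nuclei it had 79.2, 47.2 and 33.6 against 36.7, 20.4 and 24.9 CPM, which overlapped (0.90, SE 0.26, edgeR adjusted p = 0.0467). That call was lost without aplCoA replicate 1 (0.44, edgeR adjusted p = 0.322) or 2, or pplCoA replicate 2 or 3, and without pplCoA replicate 1 the value was 1.22 (edgeR adjusted p = 0.0126). Ppp3r1, the regulatory subunit of calcineurin, was called in glutamatergic nuclei (0.37). Gap43, a growth cone protein (0.55 and 0.29), and Pcp4, which speeds calcium exchange on calmodulin (0.28 and 0.55), were called in both classes. Pcp4l1 is among the 4 in GABAergic nuclei (0.51), at 9.07, 7.65 and 9.32 CPM in pplCoA. It passed the 10% filter only through aplCoA, where it was higher, so its call is not read as a result. The list medians were -0.05 and 0.19. Of calcium pumps and exchangers 1 of 11 was higher and 1 lower in glutamatergic nuclei, Slc24a3 (0.46) and Slc24a4 (-0.26), beside 10.3% and 10.9% of all genes. In GABAergic nuclei 2 of 10 were higher, Atp2b1 (0.35) and Atp2a2 (0.29), beside 4.53% of all genes, and none lower. The list median in glutamatergic nuclei was -0.03. Without pplCoA replicate 1 the calls named from the lists held in glutamatergic nuclei, and in GABAergic nuclei those of Calm3, Gap43, Pcp4, Pcp4l1 and Atp2a2 were lost (edgeR adjusted p from 0.0522 to 0.112). The differing sign of the members called in glutamatergic nuclei, all lower in aplCoA, was not tested against these lists.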

How the data were processed

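Single-nucleus libraries (10x 3' v3.1) were made from pooled tissue of aplCoA and pplCoA. The authors aligned reads with Cell Ranger 5.0.0 to mm10, with intronic reads included, and deposited unfiltered UMI counts per gene and barcode, without normalization. Nuclei had been sorted on a DNA dye.

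Here barcodes with at least 1000 genes were kept if UMIs exceeded the median of their library by at most 5 scaled median absolute deviations and mitochondrial and ribosomal percentages within 5 interquartile ranges of the upper quartile, which left 51538 and then 50535. Doublets, at 1% per 1000 nuclei, were removed by Scrublet scores. The study's emptyDrops step was not run. Nuclei were clustered on Pearson residuals (5000 genes, 50 components, 15 neighbours, Leiden resolution 1.0) and classes named from markers. Subtypes used resolution 0.8, with 0.4 as an alternative. The 9 genes were left out of clustering genes.

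Counts were summed per class and replicate and compared by edgeR 4.0.16 (TMM, quasi-likelihood, R 4.3.3) over genes in at least 10% of the nuclei of a domain, with DESeq2 1.42.0 and other settings as alternatives. Adjusted p-values are Benjamini-Hochberg over all genes tested. Values of 1 gene outside that model were tested by exact permutation of the 6 replicates, which cannot go below 0.1. As each replicate is a pool, p-values measure the spread between pools. Python 3.11.15 with scanpy 1.11.5 and leidenalg 0.10.2 was used. On simulated counts for the glutamatergic domain comparison (9715 genes), 100% of 100 genes changed by a log2 fold change of 1 were called, and 99% in the GABAergic comparison (8759 genes). For the domain difference between neuron classes 87% were called. Smaller changes, such as the tested domain differences of Calb1 and Necab1, were not simulated.

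All 9 members are named. From each further list at most the 4 genes with the largest change among those called in a class are named, and for each member the 3 most alike genes over subtypes. The members, lists and markers were chosen with earlier results of these data known. Gene positions and coding sequences are from GENCODE M21, on the same build. Other experiments of the study were not analysed here. Some genes, and the list counts and subtype levels that rest on them, are not reported here.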

Additional observations from a re-analysis of the deposited data

How the results depend on the processing

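In glutamatergic nuclei the number of the 9 genes called stayed within 1.5 times of 4 under 9 of 16 alternatives, but fell to 1 with UMIs thinned to 2000, where Calb1, Necab2 and Hpcal1 missed the filter, and ranged from 1 to 4 when 1 replicate was left out. Calls over all genes were 3527 with no filter on low counts, 587 after thinning and 895 to 2413 without 1 replicate. In GABAergic nuclei 0 of the 9 were called with library 1 or library 2 of aplCoA replicate 1 alone, with no doublet removal and with every barcode of 1000 genes split by UMIs, and 0 to 1 without 1 replicate. Calls over all genes there were 1499 with no filter, 205 with library 1, 286 after thinning and 198 to 864 without 1 replicate. For the domain difference between classes, 5 of the 9 genes passed the filter in both classes. The likelihood ratio test called 1 of these 5 and 969 genes in all, against 0 and 519 by the quasi-likelihood test. Without pplCoA replicate 1 the latter called 2 of the 5. Over the fits without 1 replicate 136 to 1128 genes in all were called. Apart from the filter, thinning and fewer samples, the cause was not tested.

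Signs that turned belonged to differences that did not pass the test. Necab3 in GABAergic nuclei was 0.0043 with RLE size factors, 0.012 with no filter, 0.0087 with no doublet removal, 0.039 with every barcode and -0.20 to 0.11 without 1 replicate. In glutamatergic nuclei it was -0.031 without the Smoc1 subtype and -0.10 to 0.14 without 1 replicate. Its difference between classes was 0.032 by the likelihood ratio test and -0.16 to 0.24 without 1 replicate. In GABAergic nuclei Calb2 was -0.0095 with library 1 and -0.18 to 0.39 without 1 replicate, Necab2 0.023 with library 2, 0.040 with every barcode and -0.21 to 0.13 without 1 replicate, and Calb1 0.0029 with library 2, 0.055 with equal weight and -0.18 to 0.058 without 1 replicate. The Ncald difference between classes was -0.15 to 0.0041 without 1 replicate.

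The labels do not say whether samples of the same number share more than the number. Their deviations correlated by 0.0753, -0.0614 and 0.102 in glutamatergic and 0.00697, -0.156 and -0.0206 in GABAergic nuclei. Those of unlike numbers correlated by -0.193 to 0.170 and by -0.166 to 0.199. With 3 samples per domain these values cannot settle whether samples of the same number shared a batch. With the replicate number as a block, 1 of the 9 genes was called in glutamatergic nuclei (Necab1) and 0 in GABAergic nuclei. Of the other calcium genes, Calm3, Gap43 and Nrgn in glutamatergic nuclei and Calm2 in GABAergic nuclei kept their calls without any 1 replicate, and the others lost theirs without at least 1. Pvalb, with 427 UMIs, is limited by depth.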
